A study of Homo sapiens with 6 samples.

Results

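Chromatin loops were described at 10 genes of the adherent and mesenchymal programme in HAP1, an adherent human cell line whose parent, KBM-7, came from a chronic myeloid leukaemia. The genes were TWIST1, SNAI2, ZEB1, ZEB2, CDH2, VIM, FN1, YAP1, CYR61 (now named CCN1) and CTGF (now named CCN2). A loop belonged to a gene when one of its anchors overlapped the gene's hg19 span with 20 kb added on each side. By this rule 66 of the 46849 loops in the list were found, from 4 at CYR61 to 11 at ZEB1, and none served 2 of the genes. The loops came from Micro-C, in which micrococcal nuclease cuts chromatin to nucleosomes before ligation. All 6 replicates form 1 group of unedited HAP1 cells. These had been sorted as diploid by a Hoechst DNA stain, grown in IMDM with 10% serum and fixed with formaldehyde and DSG. The list merges the replicates, so no spread between cultures can be given. Intervals of single loops cover counting error only. Those of medians and shares treat the loops as independent, though many loops share an anchor. The list has no measure of RNA or protein, and whether these cells expressed the 10 genes was not analysed here.

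In an epithelial-to-mesenchymal transition, cells give up tight contacts with their neighbours and take on a motile, matrix-bound form. Transcription factors of the TWIST, SNAIL and ZEB families drive it, in part by repressing the gene of E-cadherin. N-cadherin (CDH2), vimentin (VIM) and fibronectin (FN1) are its classical products. YAP1 is the coactivator held back by the Hippo pathway. It enters the nucleus of spread, attached cells and works through TEAD proteins, which bind the letters GGAATG, and CYR61 and CTGF are its textbook targets. A chromatin loop brings a pair of distant sites together, often a promoter and an enhancer or a pair of sites bound by CTCF.

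Every gene had a loop anchored at its promoter end, the end of the span where transcription starts. Of the 10 promoter ends, 10 lay inside or at the edge of a 5 kb anchor. Over the covered genome 10.1% of 5 kb bins held an anchor, and 35.2% had one within 10 kb. The covered genome runs from the first to the last anchor of each chromosome, stretches without loops included. In all, 46 of the 66 loops had an anchor within 10 kb of a promoter end, below called loops of the promoter end. The same share over all loops was not analysed here. Part of this count follows from the rule. In the short windows, of 42 to 50 kb, 10 kb each side of the promoter end takes up a large part. The share of all human promoters that lie in anchors was not analysed here, and the genes were chosen with earlier results of these loops known. Gene positions are rounded to 1 kb, and that of VIM falls on the edge of its anchor.

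RefSeq promoters (GRCh38.p14, 250 bases before to 50 after the start) are shown for 7 of the genes, since the loops are anchored at these promoter ends. Where they lie within the anchors was not worked out, as the loops are in hg19. Capitals mark matches, on either strand, to GGAATG (the TEAD site), CANNTG (the E-box bound by TWIST, SNAIL and ZEB proteins) and CCCTC (a short core of the CTCF motif), and run on where matches touch or overlap. For ZEB1 and CDH2, which have 7 and 2 listed starts, the outermost start is shown.
CTGF (chr6:131951323-131951622, minus strand): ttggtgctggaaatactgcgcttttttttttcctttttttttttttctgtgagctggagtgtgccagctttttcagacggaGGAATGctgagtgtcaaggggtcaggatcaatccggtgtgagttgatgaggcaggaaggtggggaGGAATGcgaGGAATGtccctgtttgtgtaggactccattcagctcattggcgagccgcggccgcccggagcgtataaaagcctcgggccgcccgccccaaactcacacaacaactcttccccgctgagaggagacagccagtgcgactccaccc
YAP1 (chr11:102110197-102110496, plus strand): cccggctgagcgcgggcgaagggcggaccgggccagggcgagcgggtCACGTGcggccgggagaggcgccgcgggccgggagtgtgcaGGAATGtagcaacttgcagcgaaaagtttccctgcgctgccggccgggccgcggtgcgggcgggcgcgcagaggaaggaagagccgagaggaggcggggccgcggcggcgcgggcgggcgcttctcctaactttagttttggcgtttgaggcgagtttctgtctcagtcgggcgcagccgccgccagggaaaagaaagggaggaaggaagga
ZEB1 (chr10:31318167-31318466, plus strand): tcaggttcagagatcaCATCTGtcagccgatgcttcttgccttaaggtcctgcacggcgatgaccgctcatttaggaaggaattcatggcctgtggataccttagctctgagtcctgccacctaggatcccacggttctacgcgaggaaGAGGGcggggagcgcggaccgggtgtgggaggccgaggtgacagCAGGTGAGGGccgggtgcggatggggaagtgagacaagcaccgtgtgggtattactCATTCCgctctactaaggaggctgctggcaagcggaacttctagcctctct
ZEB2 (chr2:144520070-144520369, minus strand): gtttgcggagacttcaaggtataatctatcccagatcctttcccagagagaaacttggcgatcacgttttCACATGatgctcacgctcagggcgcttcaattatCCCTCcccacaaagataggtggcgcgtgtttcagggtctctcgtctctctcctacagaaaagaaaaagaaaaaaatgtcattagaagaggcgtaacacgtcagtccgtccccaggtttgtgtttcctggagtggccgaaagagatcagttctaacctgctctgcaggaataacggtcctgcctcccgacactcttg
CDH2 (chr18:28177081-28177380, minus strand): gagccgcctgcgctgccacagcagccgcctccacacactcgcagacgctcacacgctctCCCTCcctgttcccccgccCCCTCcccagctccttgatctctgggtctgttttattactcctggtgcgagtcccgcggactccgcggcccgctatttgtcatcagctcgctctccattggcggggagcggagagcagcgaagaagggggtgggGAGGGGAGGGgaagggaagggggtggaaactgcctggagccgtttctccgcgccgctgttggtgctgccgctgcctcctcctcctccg
VIM (chr10:17227991-17228290, plus strand): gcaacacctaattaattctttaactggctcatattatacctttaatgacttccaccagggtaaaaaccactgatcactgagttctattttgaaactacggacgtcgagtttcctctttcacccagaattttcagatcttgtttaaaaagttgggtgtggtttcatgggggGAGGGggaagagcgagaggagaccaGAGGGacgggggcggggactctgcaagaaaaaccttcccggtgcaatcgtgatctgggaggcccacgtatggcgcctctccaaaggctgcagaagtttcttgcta
FN1 (chr2:215436019-215436318, minus strand): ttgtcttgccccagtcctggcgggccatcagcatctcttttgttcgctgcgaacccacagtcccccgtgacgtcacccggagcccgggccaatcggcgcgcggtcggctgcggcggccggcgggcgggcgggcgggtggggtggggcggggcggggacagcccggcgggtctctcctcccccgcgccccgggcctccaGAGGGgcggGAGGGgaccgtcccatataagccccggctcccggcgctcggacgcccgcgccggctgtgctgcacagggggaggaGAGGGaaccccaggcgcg

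The CTGF promoter held 3 matches to GGAATG, starting at bases 82, 147 and 156 of the sequence. Of 35116 promoters of this length, 14.0% held at least 1 such match and 0.128% held 3 or more. The YAP1 promoter had 1 match at base 89, and that of ZEB1 had 1 at base 250 on the other strand. E-box letters occurred 2 times in the ZEB1 promoter and 1 time each in those of ZEB2 and YAP1, while 68.7% of all promoters held at least 1. CCCTC occurred 4 times at CDH2, 3 times at FN1, 2 times each at VIM and ZEB1 and 1 time at ZEB2, while 71.2% of all promoters held at least 1 and 23.7% held 3 or more. Matched letters are a description of the sequence and not evidence of binding.

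**Figure D1:**
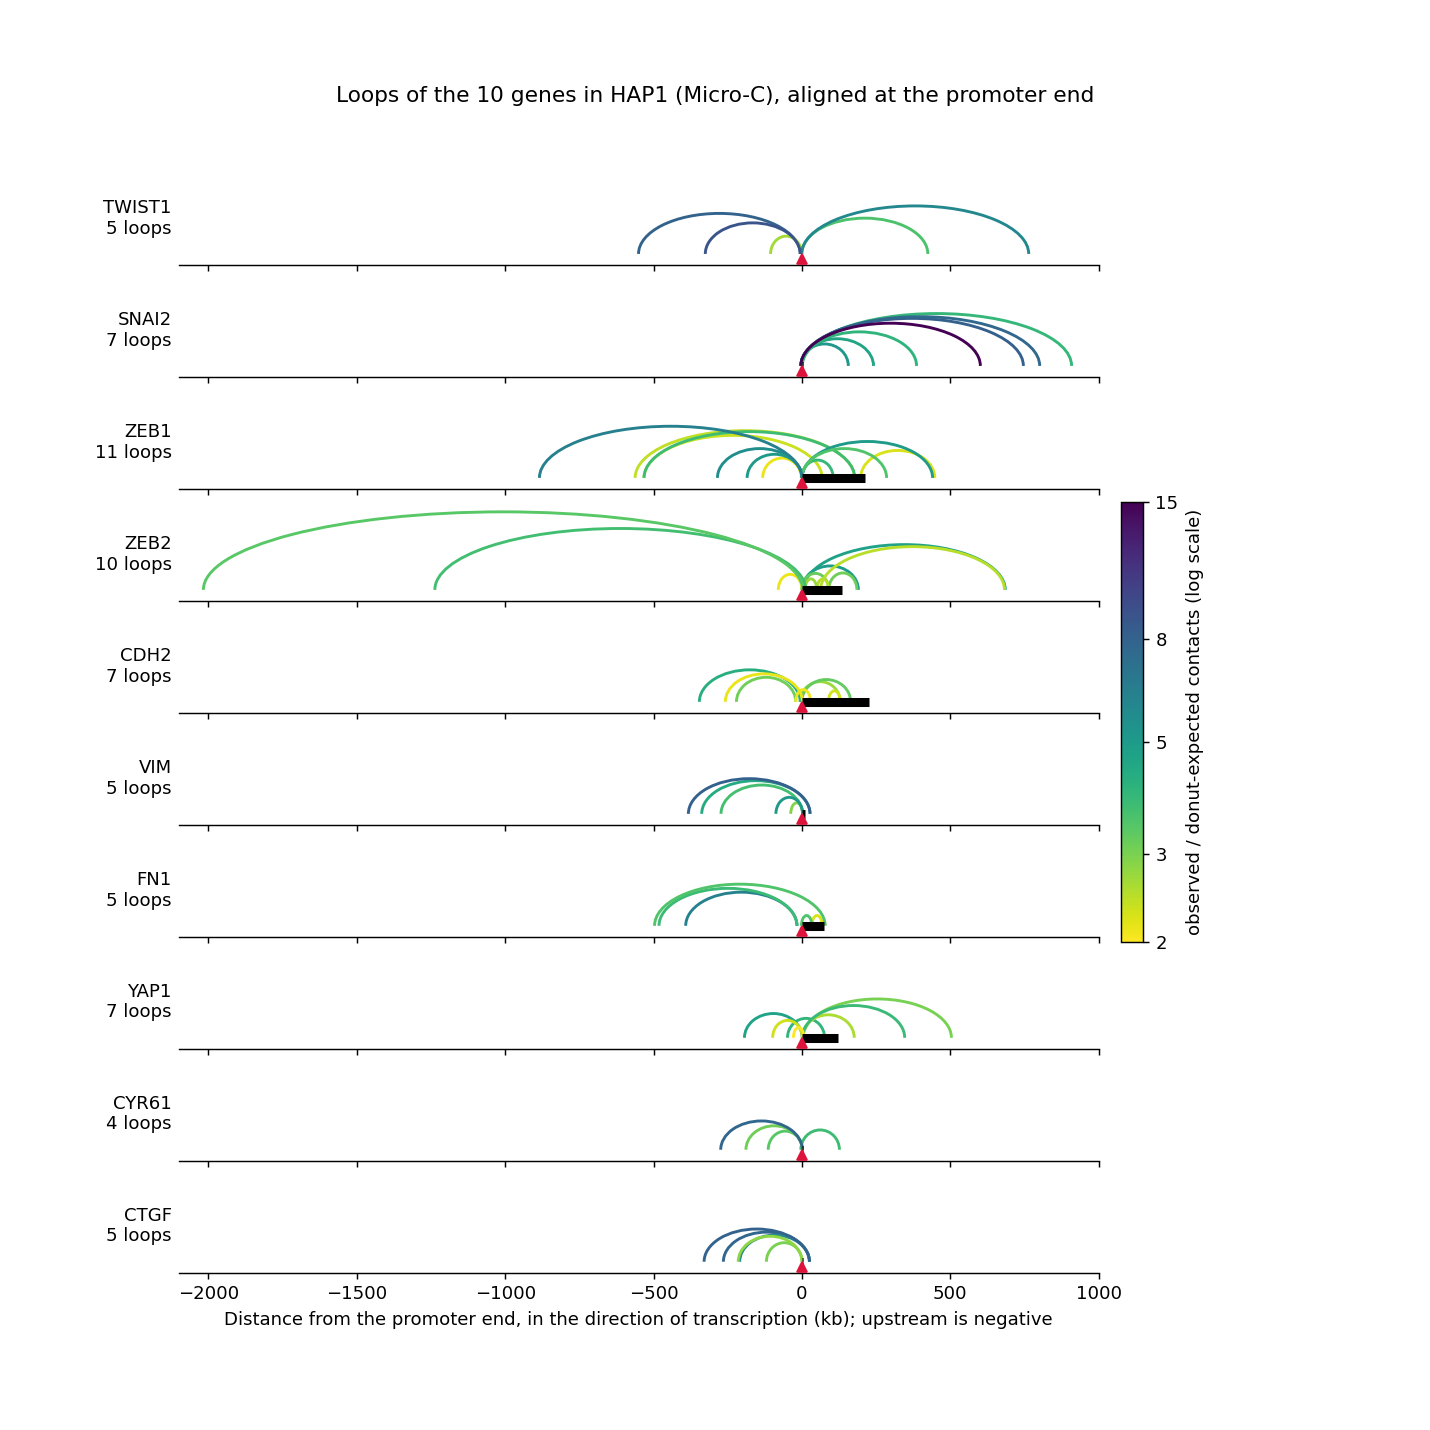
Loops of each gene drawn as arcs between anchor midpoints, against the distance from the promoter end in kb (upstream negative). Black bars are gene spans, triangles promoter ends, and colour the ratio of observed to donut-expected contacts on a log scale; arc height has no scale of its own. All 7 SNAI2 loops run downstream, all 5 of VIM and all 5 of CTGF run upstream, and ZEB2 holds the longest loop, of 2020 kb.

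Loops of the 10 genes were longer than is usual in the list and had a similar median contact ratio, though at like span their ratios ranked below the middle of the list (median percentile 37.7, with 27 of 66 above 50). Their median span was 255 kb (95% interval 185 to 345 kb), against 160 kb in the whole list. The median ratio of observed contacts to those expected from the donut-shaped surroundings was 3.67 (95% interval 3.20 to 4.06), against 3.55. A median of 27 contacts was observed per loop (95% interval 23 to 34, range 8 to 95), against 31. Anchors were 5 kb wide in 55 loops and 10 kb wide in 11. A ratio of at least 5 was reached by 17 of the 66 loops (25.8%), against 28.9% of the list.

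With the 20 kb margin, short genes had as many loops as some long ones. With bare gene spans, the short genes TWIST1, SNAI2, VIM, CYR61 and CTGF had 3, 2, 3, 3 and 2 loops. The longer genes ZEB1, ZEB2, YAP1, CDH2 and FN1 then had 11, 10, 7, 5 and 2. The windows covered 1197 kb together and held 76 anchor ends, or 6.35 per 100 kb, against 3.20 per 100 kb of the covered genome. The windows are gene loci chosen with earlier results known, so they are not like for like with the covered genome. SNAI2, a gene of 4 kb, had 15.9 loops per 100 kb of window, and CDH2, a gene of 226 kb, had 2.63. The margin makes up most of the SNAI2 window, so these values depend on it. Of the 66 loops, 36 ran to the upstream side of the gene, 20 to the downstream side and 10 joined sites within the window. Loops within the window were short, with a median span of 45 kb, and had a median ratio of 2.70. Their span cannot exceed the window, and ratios rise with span in the list. Downstream loops had a median span of 405 kb and a ratio of 3.98, and upstream loops a median span of 275 kb and a ratio of 3.72.

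Loops differ in reliability. Each of the caller's 4 q-values was at or below 0.1 in 40 of the 66 loops (60.6%, exact 95% interval 47.8 to 72.4%), against 72.0% of the list. By gene, all 5 loops of VIM and all 4 of CYR61 met this limit, as did 4 of 5 at FN1 and at CTGF, and 5 of 7 at SNAI2. The limit was met by 4 of 7 at YAP1, 6 of 11 at ZEB1, 5 of 10 at ZEB2, 2 of 5 at TWIST1 and 1 of 7 at CDH2. A single significant pixel underlay 4 of the 66 (6.06%), at SNAI2, ZEB1 (2 loops) and YAP1, against 8.94% of the list.

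**Figure D2:**
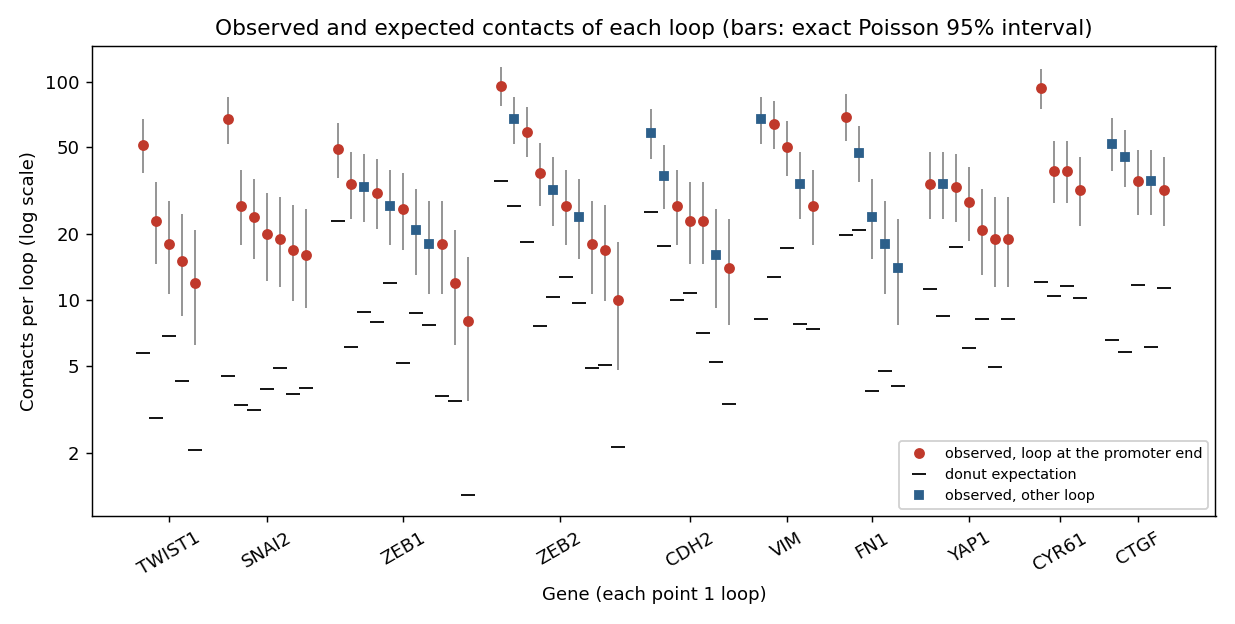
Observed contacts of each loop (log scale) with exact Poisson 95% intervals, by gene, and the donut expectation as a dash. Circles are loops with an anchor within 10 kb of the promoter end and squares the others. The most contacts were 95 at ZEB2 and 93 at CYR61, and the fewest were 8 at ZEB1.

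The transcription factors come first. TWIST1, a basic helix-loop-helix factor of mesoderm and skull development, lies on chromosome 7 (19.155 to 19.157 Mb, minus strand). All 5 of its loops had an anchor within 10 kb of the promoter end, which lay inside the anchor of 3, and they ran both ways. The one with the most contacts joined the bin just upstream of the gene (19160001 to 19165000) with 19480001 to 19485000, at a span of 320 kb. It had 51 observed contacts (95% interval 38.0 to 67.1) against 5.71 expected, a ratio of 8.93 (interval 6.65 to 11.7). From the same bin, a loop of 545 kb to 19705001 to 19710000 had 23 contacts against 2.89 expected. These loops run to the side of FERD3L, the next coding gene in RefSeq's order.

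The remaining TWIST1 loops had lower ratios and left from the bin that holds the gene (19155001 to 19160000). On the upstream side, a 105 kb loop had 18 contacts against 6.80 expected. On the other side, where HDAC9 is the next coding gene, a loop of 425 kb had 15 contacts against 4.24 expected and one of 765 kb had 12 against 2.04. The highest q-value of each of these 3 loops was above 0.1 (0.151, 0.256 and 0.105). Far ends were themselves joined, except that of the 105 kb loop. Loops linked 18730001 to 18740000 with 19480001 to 19490000 (18 contacts against 6.48 expected) and with 19700001 to 19710000 (21 against 6.78). Others linked 18390001 to 18400000 with 19700001 to 19710000 (15 against 3.68) and the pair of upstream ends with each other (15 against 2.66). TWIST1 thus sat among 4 far sites, each with a loop to the gene's bin or the bin just upstream and to at least 1 other site. Counted by shared anchor, 0 of 3 pairs of far ends were joined at the gene's bin. At the bin just upstream it was 1 of 1, against 18.3% of such pairs in the list. For links between far ends of different anchors, the share in the list was not analysed here.

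SNAI2, the zinc-finger repressor also called Slug, which marks neural crest cells as they leave the neural tube, lies on chromosome 8 (49.830 to 49.834 Mb, minus strand). It had 7 loops, every one of them from the promoter end to the downstream side, where the coding gene CLXN comes next. The contact ratio of 1 of them was the highest of all 66. It joined 49835001 to 49840000 with 49230001 to 49235000, a span of 605 kb, by 67 contacts (95% interval 51.9 to 85.1) against 4.46 expected, which is a ratio of 15.0 (interval 11.6 to 19.1). Among 1422 loops of the same anchor width and like span (within 10%) it stood at percentile 98.1.

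The other 6 loops of SNAI2 fell on both sides of that one. Farther out, the loop of 750 kb had 27 contacts against 3.32 expected and that of 805 kb had 24 against 3.12. The longest, of 910 kb, had 19 against 4.86, and its highest q-value was 0.568. Nearer to the gene, loops of 160, 245 and 385 kb had 20, 17 and 16 contacts, with ratios of 5.11, 4.58 and 4.06. The last of these had a highest q-value of 0.139. The promoter anchor thus reached a row of sites on one side only. Of the far ends, those at 605 and 245 kb were joined by a loop of their own (29 contacts against 14.6 expected). Contact depth near the gene was low. Donut expectations of the 22 loops within 1 Mb were 0.765 times the median of loops of like span, and its part in the ratios was not tested.

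ZEB1 and ZEB2 encode zinc-finger homeobox proteins that repress E-cadherin and are held in check by the miR-200 family. ZEB1 lies on chromosome 10 (31.607 to 31.819 Mb, plus strand) and had 11 loops, the most of the 10 genes. Its promoter end carried 7 of them, 4 upstream, 2 downstream and 1 to a site inside the gene. With 34 contacts against 6.10 expected (ratio 5.57, interval 3.86 to 7.78), the loop between 31605001 to 31610000 and 31320001 to 31325000 was the best supported by q-value. The loop with the most contacts was short and wide, 49 contacts against 22.9 expected over 130 kb with 10 kb anchors. The highest ratio belonged to the longest loop, of 885 kb upstream, and at 8 contacts against 1.28 expected it is also the least precise (ratio 6.26, interval 2.70 to 12.3). Its highest q-value was 0.745.

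The ZEB1 promoter end had 7 loops, and of the 21 pairs of their far ends 4 were themselves joined, against 18.3% of such pairs in the list. Upstream, a further loop of 185 kb had 26 contacts against 5.12 expected. Inside the gene, 31710001 to 31715000 was joined to the promoter end by 31 contacts against 7.95. Downstream, where ARHGAP12 is the next named coding gene, loops of 285 and 440 kb had 12 and 18 contacts against 3.45 and 3.63. The former had a highest q-value of 0.516. The far site at 31320001 to 31325000 was joined to both downstream sites, by 31 contacts against 3.84 expected (725 kb) and by 23 against 4.04 (570 kb). Those downstream sites were joined to each other (32 against 7.31), and the upstream sites of the 185 and 285 kb loops likewise (24 against 7.52). The other far sites had no such link. In all 7 loops enclosed the ZEB1 window, with spans of 480 to 1120 kb.

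From within the ZEB1 gene body, 10 kb anchors reached out as well. The site at 31780001 to 31790000 was joined to 31070001 to 31080000 by 33 contacts against 8.76 expected (ratio 3.77). It was also joined to a second site 740 kb away by 21 contacts against 8.68, where the highest q-value was 0.737. The site at 31670001 to 31680000 had 18 contacts against 7.67 with the anchor at 31070001 to 31080000 (highest q-value 0.771). Near the end of the gene, 31800001 to 31810000 had 27 contacts against 12.0 with a downstream site 250 kb away (highest q-value 0.347). These 10 kb loops had ratios of 2.25 to 3.77.

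ZEB2, the paralogue mutated in Mowat-Wilson syndrome, lies on chromosome 2 (145.142 to 145.278 Mb, minus strand) and had 10 loops. Its loops included a chain inside the gene. The site at 145185001 to 145190000 was joined to 145225001 to 145230000 by 67 contacts against 26.9 expected. That site in turn was joined to 145265001 to 145270000, next to the promoter end, by 95 contacts (interval 76.9 to 116) against 35.2. This was the highest count among the 66 loops, and it was merged from 31 pixels. A further loop, of 90 kb, joined the promoter end (145275001 to 145280000) with the inner site by 59 contacts against 18.4. Ratios along the chain were 2.49 to 3.20, and the expectations of these short loops were the highest at ZEB2.

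Outside the gene, the ZEB2 promoter end reached 145085001 to 145090000, downstream of the gene and of its window, by 38 contacts against 7.61 expected. Its ratio of 4.99 (interval 3.53 to 6.85) was the highest at ZEB2. Its neighbour 145090001 to 145095000 was joined to the inner site at 95 kb (32 against 10.3). At 145270001 to 145280000 began the longest loop of the 66, which spanned 2020 kb upstream to 147290001 to 147300000 with 17 contacts against 5.03. A second long one, of 1250 kb, had 18 contacts against 4.89. These long loops rest on small counts, and their highest q-values were 0.492 and 0.311. A loop of 80 kb upstream had 27 contacts against 12.7 and a highest q-value of 0.784. A site far downstream, at 144590001 to 144595000, was joined to the promoter end by 10 contacts against 2.13 (highest q-value 0.722). With 10 kb anchors it was joined to the gene body by 24 against 9.67 (highest q-value 0.251). No loop enclosed the ZEB2 window.

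Next come the products of the programme. CDH2 encodes N-cadherin, the adhesion protein of neurons, muscle and fibroblasts, and lies on chromosome 18 (25.531 to 25.757 Mb, minus strand). Its 7 loops were the weakest of the 10 genes by median ratio, 2.70 (range 2.09 to 4.21). The loop with the most contacts lay inside the gene (25625001 to 25630000 with 25665001 to 25670000, 58 contacts against 25.4 expected) and was the only one with each q-value at or below 0.1. The same inner site was joined to the promoter end by 27 contacts against 10.0, and another, at 25590001 to 25595000, by 23 against 7.08. Upstream, towards DSC3, the promoter end had loops of 260 kb (23 against 10.7) and 340 kb. The 340 kb loop, with 14 contacts against 3.32, was the longest and had the highest ratio, 4.21 (interval 2.30 to 7.07).

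A site 18 kb upstream of CDH2 (25775001 to 25780000) had the other loops, one back into the gene (37 contacts against 17.7) and one of 200 kb outward (16 against 5.17). Each of the 7 loops stood below the median of loops of like span, at percentiles of 5.54 to 39.8. Contact depth was low here too, with donut expectations of the 35 loops within 1 Mb at 0.798 times those of like span, and its part in these values was not tested. No loop enclosed the CDH2 window.

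VIM encodes vimentin, the intermediate filament of mesenchymal cells, and lies on chromosome 10 (17.270 to 17.280 Mb, plus strand). All of its 5 loops ran upstream, towards TRDMT1, and each had all q-values at or below 0.1. From the promoter anchor (17270001 to 17275000), a loop of 90 kb to 17180001 to 17185000 had 64 contacts (interval 49.3 to 81.7) against 12.7 expected. One of 40 kb had 50 contacts against 17.3 and one of 275 kb had 27 against 7.39. The others left from a site 15 kb beyond the end of the gene (17295001 to 17300000) and so passed over VIM.

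From that site, the loop to 16885001 to 16890000 over 410 kb was the strongest at VIM. It had 67 contacts (interval 51.9 to 85.1) against 8.19, a ratio of 8.18 (interval 6.34 to 10.4). A loop of 365 kb had 34 against 7.79. Among loops of like span, those of VIM ranked highest of the 10 genes, at a median percentile of 75.3. Contact depth around VIM was 1.22 times that of like-span loops, and its part in the counts was not tested.

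FN1 encodes fibronectin, the matrix protein that integrins bind, and lies on chromosome 2 (216.225 to 216.301 Mb, minus strand). Its gene body was joined in short steps of 35 kb. The promoter end (216300001 to 216305000) met 216265001 to 216270000 by 69 contacts (interval 53.7 to 87.3) against 19.9 expected, at percentile 90.3 of loops of like span by ratio. The same inner site met 216230001 to 216235000, near the end of the gene, by 47 contacts against 20.9. No long loop of the list left from the promoter bin. A site 14 kb upstream of the gene's promoter end (216315001 to 216320000) was joined to sites 375 and 465 kb away by 24 and 18 contacts against 3.84 and 4.75. The 375 kb loop had the highest ratio at FN1, 6.24 (interval 4.00 to 9.29). The longest, of 575 kb from the far end of the gene, had 14 contacts against 4.02 and a highest q-value of 0.426. All 3 outward loops ran upstream, towards MREG.

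Last is the Hippo pathway. YAP1, on chromosome 11 (101.981 to 102.104 Mb, plus strand), had 7 loops, 6 of them from the promoter end and running both ways. Upstream, towards CFAP300, the loop to 101785001 to 101790000 had 28 contacts against 5.99 expected, and its ratio of 4.67 (interval 3.10 to 6.75) was the highest at YAP1. The loops of 100 and 35 kb on that side had 19 against 8.21 and 33 against 17.4 (highest q-values 0.336 and 0.121). Downstream, towards BIRC3, loops of 175, 345 and 500 kb had 21, 19 and 34 contacts, with ratios of 2.58, 3.84 and 3.03. Of these, the 175 kb loop had a highest q-value of 0.123. The longest, with 10 kb anchors, rested on 1 pixel and ended at an anchor that held 7 loops in the list. The remaining loop ran from the gene body upstream (34 against 8.47). A loop of 540 kb joined the 195 kb upstream site with the 345 kb downstream site across the gene (33 against 9.80). By rank among loops of like span, YAP1 was low, at a median percentile of 18.2.

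CYR61 encodes a secreted matricellular protein that supports cell adhesion and the growth of vessels, and lies on chromosome 1 (86.046 to 86.050 Mb, plus strand). All 4 of its loops had an anchor within 10 kb of the promoter end, which lay inside the anchor of 3. The loop with the most contacts lay between 86045001 to 86050000 and 85770001 to 85775000, 275 kb upstream on the side of DDAH1. It had 93 contacts (interval 75.1 to 114) against 12.1 expected, a ratio of 7.70 (interval 6.22 to 9.43), and stood among loops of like span at percentile 80.2 by ratio and 96.0 by contacts. From the same anchor, loops of 190 and 115 kb had 32 and 39 contacts against 10.2 and 11.5. The bin just upstream (86040001 to 86045000) had a downstream loop of 130 kb, towards ZNHIT6, with 39 contacts against 10.4. The far anchor at 85770001 held 7 loops in the list. Of these, 3 passed over CYR61, and the one to 86155001 to 86160000 had 71 contacts against 6.91 (ratio 10.3).

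CTGF encodes connective tissue growth factor, a secreted protein linked to fibrosis and of the same family as CYR61. It lies on chromosome 6 (132.269 to 132.273 Mb, minus strand). Its 5 loops all ran upstream, towards MOXD1, from a pair of anchors, one at the promoter end and one beyond the end of the gene. The strong ones began 19 kb beyond the end of the gene, at 132245001 to 132250000. They spanned 235, 290 and 355 kb with 35, 45 and 52 contacts and ratios of 5.76, 7.77 and 7.97. The last of these had an interval of 5.95 to 10.5 for its ratio and was both the longest and the strongest at CTGF.

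From the CTGF promoter anchor itself (132270001 to 132275000), whose promoter has the 3 matches to GGAATG shown above, the loops had lower ratios. A loop of 120 kb had 35 contacts against 11.7 expected, a ratio of 3.00 (interval 2.09 to 4.18). One of 215 kb had 32 against 11.4, a ratio of 2.82 (interval 1.93 to 3.98), and its highest q-value was 0.178. These intervals do not reach those of the 290 and 355 kb loops of the neighbouring anchor, which begin at 5.67 and 5.95. That of its 235 kb loop, 4.01 to 8.01, overlaps the interval of the 120 kb promoter loop. The loops differ in span, and ratios rise with span in the list as a whole. Ranked by ratio among loops of like span, the 120 and 215 kb promoter loops stood at percentiles 16.2 and 4.94. The loops of 235, 290 and 355 kb stood at 65.9, 79.8 and 81.25. The reason for the difference was not tested. The far ends of both promoter loops were joined to each other (23 contacts against 9.42).

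**Figure D3:**
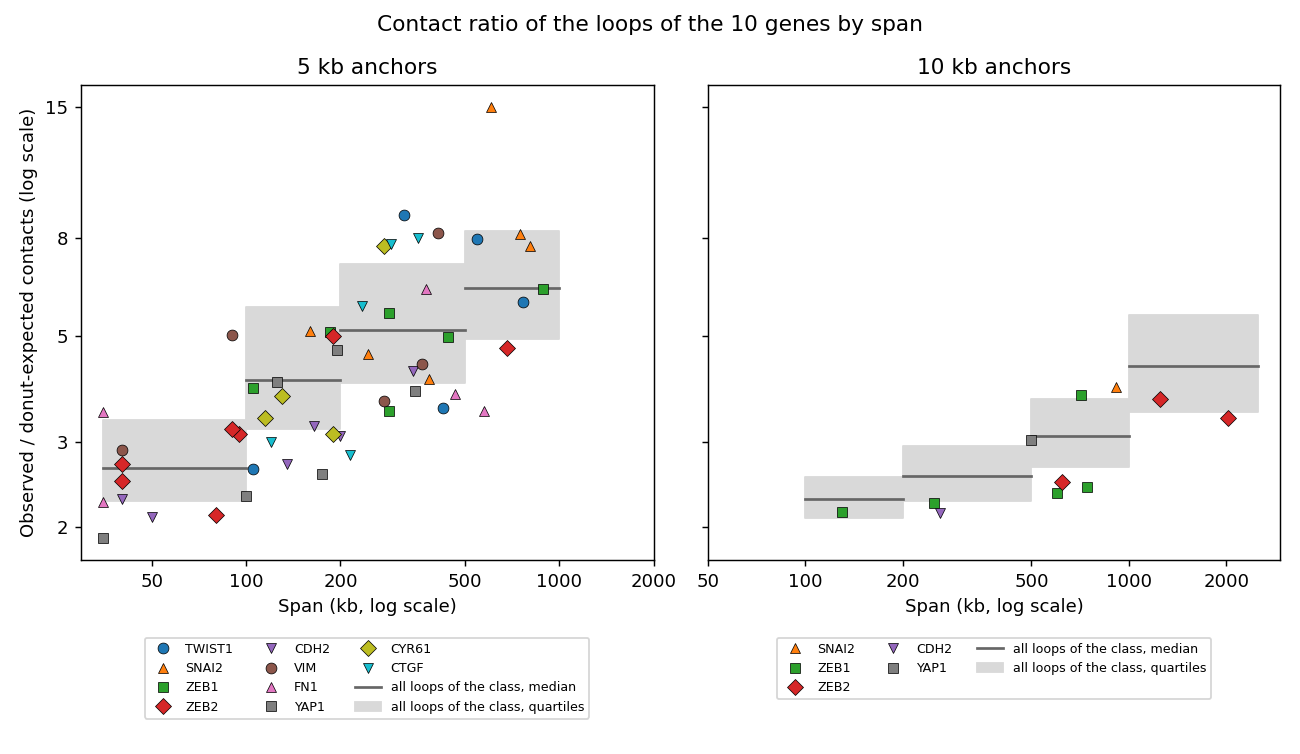
Ratio of observed to donut-expected contacts against span, both on log scales, for loops with 5 kb anchors (left) and 10 kb anchors (right). Points are the 66 loops by gene. Lines and grey bands are the median and quartiles of all loops, in those span classes that held points. The open-ended class, from 1000 kb up, is drawn on the right only. The SNAI2 loop of 605 kb, at 15.0, lies highest, and most CDH2 loops lie below the band or in its lower part.

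Set side by side, the genes overlapped widely. By median ratio the order was TWIST1 (5.87), CTGF (5.76), SNAI2 (5.11), VIM (4.37), ZEB1 (3.77), CYR61 (3.57), FN1 (3.49), ZEB2 (3.16), YAP1 (3.03) and CDH2 (2.70). The ranges of each pair of neighbours in this order overlap. Since ratios rise with span, each loop was also ranked among loops of the same anchor width and like span. The order then became VIM (75.3), SNAI2 (66.4), CTGF (65.9), ZEB2 (45.0), FN1 (42.2), CYR61 (38.1), TWIST1 (37.5), ZEB1 (37.2), YAP1 (18.2) and CDH2 (17.4), as median percentiles. Over all 66 loops the median percentile was 37.7, and 27 loops stood above 50. In 5 kb loops of 200 to 500 kb, the 20 loops of these genes had a median ratio of 4.47, against 5.15 for all 10126 loops of the class. Only in 5 kb loops of 500 to 1000 kb was the order the other way, with 6.97 in 8 loops of these genes, against 6.27 for all 3940. In every other class of anchor width and span that held loops of these genes, their median ratio was the lower one. By contacts, the 66 loops ranked at a median percentile of 45.4.

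**Figure D4:**
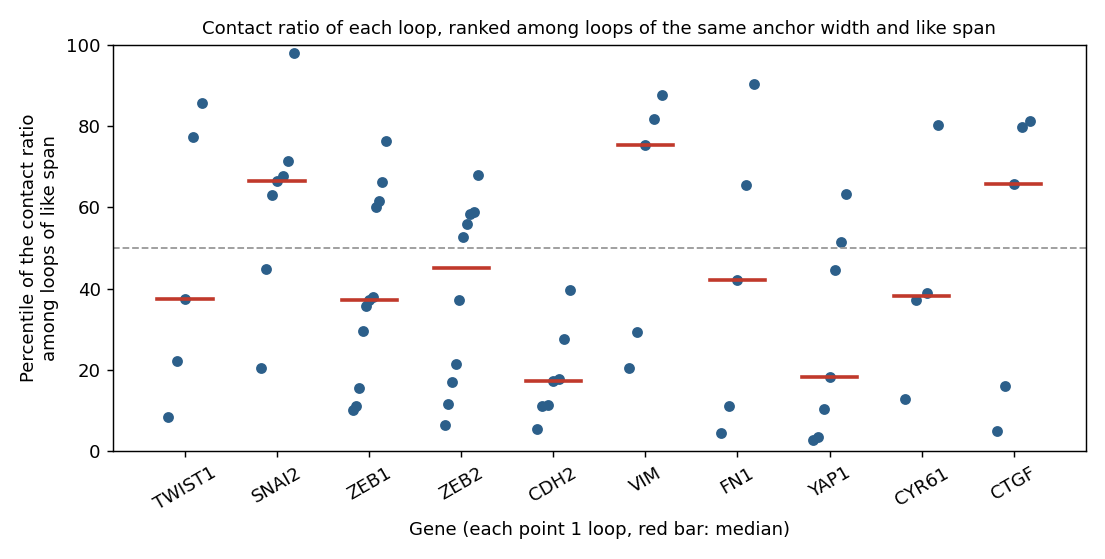
Percentile of each loop's contact ratio among all loops of the same anchor width whose span lies within 10%, by gene, with the gene's median as a red bar and the middle of the list as a dashed line. All 7 CDH2 loops lie below 50, while 3 of 5 VIM loops lie above 75.

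Loops that pass over a gene were counted apart, as they play no part in the rule. In all, 20 loops enclosed 1 of the windows with both anchors outside it, at 7 of the 10 genes. Over the covered genome 83.8% of 5 kb bins with a 20 kb margin were enclosed in this way. The windows of the genes ran from 42 to 266 kb, so the shares are not matched for size. ZEB1 had 7, TWIST1 had 4, FN1 and CYR61 had 3 each, and VIM, YAP1 and CTGF had 1 each. SNAI2, ZEB2 and CDH2 had none. When the bare gene spans were used instead, SNAI2 had 5, since its own loops leave from just upstream of the gene and pass over it. The shortest enclosing loop, of 305 kb, was at FN1. The longest, also at FN1, spanned 2770 kb with 21 contacts against 3.76 expected.

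Anchors inside the windows were often shared. Of 33 merged anchors, 21 held at least 2 loops (63.6%), against 45.9% of all 47497 anchors. The promoter anchors of SNAI2 and ZEB1 held 7 loops each, that of YAP1 6 and that of ZEB2 5. Over all 33 anchors, the far ends of 8 out of 94 pairs of loops were themselves joined (8.51%), against 18.3% of 95265 pairs in the list. When the anchors of a window were pooled, 12 loops joined far ends of the same gene, at 6 of the genes, and 6 of these passed over the gene (3 at TWIST1, 2 at ZEB1 and 1 at YAP1). The share over the list was not worked out for this pooled count, and it cannot be set against the 18.3%.

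The margin sets part of the membership. With bare gene spans 48 loops had an anchor at a gene, with 10 kb added 58, with 20 kb the 66 described and with 50 kb 74. At SNAI2 the count was 2 with bare spans, against 7, and at CTGF it was 2 with 10 kb, against 5. The outermost anchors inside it lay 19 kb from CTGF (52 contacts, ratio 7.97), 18 kb from CDH2 (16 contacts, ratio 3.09) and 15 kb from VIM (34 contacts, ratio 4.37). The nearest anchors left outside lay 25 kb from VIM (68 contacts, ratio 3.65) and 29 kb from CTGF (22 contacts, ratio 3.54). At the other 8 genes the nearest anchor outside was 41 to 76 kb away.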

How the data were processed

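Micro-C libraries of 6 replicates, 1 group, had been merged into 1 loop list. Of each loop the authors deposited raw counts, namely the observed contacts of its pixel and the number of merged pixels. The deposited file also holds 4 expected values (lower-left, donut, horizontal and vertical surroundings) on the same scale, a q-value against each, and a radius of the merged pixels in bp. These are the caller's own values. Its header names juicer_tools 1.22.01. BWA and hg19 appear in the submitters' processing notes without a role. For library depths and caller settings, the sources used here give nothing.

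The members and lists were chosen with earlier results of these data known. Spans came from the rule in hg19. Strand was read from RefSeq (GRCh38.p14) for 7 genes and from textbook knowledge for TWIST1, SNAI2 and CYR61; RefSeq also gave the order of named coding genes, with no coordinates moved between builds. Overlap needed 1 bp. The contact ratio divides observed contacts by the donut expectation, and spans run from midpoint to midpoint. Intervals of counts and ratios are exact Poisson (ratios hold the expectation fixed), those of medians binomial order statistics and those of shares Clopper-Pearson, at 95%. Contact depth is the median over loops with an anchor within 1 Mb of the gene of the donut expectation over that of like-span loops. Genes were all described; loops were named where a gene had at most 4, and otherwise by most contacts, highest ratio, greatest span and the promoter end, with the others given in brief. No test was run, since loops are not replicates. Other genes of the programme were not analysed here. Functions were tested on simulated data. Scripts ran in Python 3.11.15 (scipy 1.17.1, pandas 2.3.3, numpy 2.4.6; plots by matplotlib 3.10.9).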

Additional observations from a re-analysis of the deposited data

How the results depend on the processing

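Of 109 alternative values, 79 concerned the main results, and 72 of these stayed within 1.5 times (counts) or within the 95% interval (medians and shares) of the value reported. Keeping only loops with each q-value at or below 0.1 left 40 loops, 27 of them at promoter ends, with a median ratio of 4.19 and a median of 34.5 contacts. The median ratio was 2.91 with the vertical expectation and 2.75 with the highest of the 4 expectations. With bare gene spans, 32 loops enclosed a gene in place of 20. Leaving out each gene in turn gave 55 to 62 loops, a median ratio of 3.48 to 3.78, a median span of 235 to 275 kb and a median of 27 to 31 contacts. Those loop counts could not move by 1.5 times, as no gene held more than 11 of the 66 loops. The same holds for the loop count without the 4 loops of a single pixel. The medians without 1 gene rest largely on the same loops as the interval they are held against. Of 30 counts per gene under other margins, 9 moved by over 1.5 times, at TWIST1, SNAI2, VIM, FN1 and CTGF. With no margin SNAI2 had 2 loops in place of 7, since most of its loops leave from the bin just upstream. The alternatives for the percentile (spans within 20%, same chromosome) and for the share of loops by q-value were chosen after seeing the data. No paired analysis was possible because the list merges the 6 replicates of 1 group. Small counts limit single loops most: 8 contacts have an interval of 3.45 to 15.8.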
